A study of Bos taurus with 8 samples.

Results

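The 43 genes described here comprise 24 that act in DNA replication and 19 that act in mitosis. They were found on the array by the gene name in the scanner files, and the brightest probe stood for each gene. The array carried 40 of them. MCM2, MKI67 and TOP2A had no probe of that name. CENPF was measured on too few arrays to be tested, which left 39 of the 12064 genes tested in all, 23 for replication and 16 for mitosis. The brightest probe of each of the 39 genes was well above background on all 8 arrays, so none of the levels below is only a bound.

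The cells were primary bovine retinal cultures that the labels give as Müller glia and the extraction text as astrocytes, kept for 18 to 21 days. The groups follow the sample titles: untreated control (replicates A and B), the HIV-1 transactivator TAT at 100 ng/ml (A, B and C) and the HIV-1 envelope protein gp120 at 60 ng/ml (A, B and C), each protein for 24 h. The treatment text is the same for every sample, controls included, and names both proteins together. The labels do not say whether the letters mark separate cultures or animals, so a p-value here covers the spread among these samples alone, which may be technical. Each sample has 1 single-dye array, and all 8 arrays lay on 1 slide.

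Between 55.46% and 64.62% of spots on an array were well above background, and no spot was saturated. All letter A arrays and control B lay in row 1 of the slide and the other 4 in row 2. The scans were numbered here by the scan time in the file headers. Scan 1, at a higher detector voltage, holds gp120 B and gp120 C, and scan 2 the other 6 arrays. Among marker genes, GLUL (glutamine synthetase) and VIM (vimentin) were well above background on 8 arrays and the Müller glia gene RLBP1 on 2. Of 14 microglia and macrophage markers, 13 were well above background on 8 arrays.

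Replication begins when the origin recognition complex, CDC6 and CDT1 load the MCM helicase onto DNA, and CDC45 and the GINS complex then activate it for the polymerases. Entry into mitosis follows when cyclin B and CDK1 become active, the Aurora and Polo kinases build the spindle, and the anaphase-promoting complex with CDC20 ends the process by degrading cyclin B. In many cell types replication transcripts are most abundant around the G1/S boundary and mitotic transcripts in G2 and M. Müller glia of the mammalian retina are largely quiescent in the healthy eye and can divide after injury and in culture.

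The array reads each transcript with probes of 60 bases. The first 30 bases of the probe used are shown for the 4 mitosis genes with the largest difference between letters C and A, for 3 replication genes that passed there (GINS2, MCM4 and MCM3) and for PCNA and TYMS, whose differences were small, so that the transcript read is identified. Whole probes are shown for UBE2C and ORC1, whose deposited positions span more than the probe's own length, as a probe across an exon junction does. For CCNB1 a second probe that overlaps the first is added, and for MCM3 a second probe that the files place on another chromosome. Capitals mark AATAAA, the letters of the polyadenylation signal. On the probe strand these letters stood in 6 of the 39 probes used (15.4%) and in 14.7% of the probes used for all genes.
KIF20A: agcactccccacaggtgggtctgctgctca
CCNB1: gcaaaggtgtaacttgtgaactttggaata
CCNB1, second probe: ggaatactacctgcaAATAAAattggcacc
NUSAP1: tgttgtacctgagtggagtgtctgtgtttt
CDC20: tacagtggcatccgcagcagcagatgagac
UBE2C: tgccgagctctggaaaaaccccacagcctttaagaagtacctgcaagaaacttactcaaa
ORC1: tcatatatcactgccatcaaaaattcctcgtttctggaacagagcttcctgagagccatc
GINS2: tcgggacatgacagagatactcacgtttct
MCM4: acaatggggttccatgttaacttgtattgc
MCM3: agttaagactcatatggaattttgacccaa
MCM3, second probe: gaataagggacgaacaggtatgttcctttc
PCNA: agtcaaatctggtcttgttaactgagtaat
TYMS: ctaaatctgagcaagctgggtaacacccat

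In the build of the file headers, HGSC Btau_3.1, these probes lie at chr7:48937017-48937076 on the plus strand (KIF20A), chr20:11106729-11106792 and chr20:11106709-11106768 on the minus strand (CCNB1) and chr10:36730374-36730433 on the plus strand (NUSAP1). The CDC20 probe lies at chr3:109574830-109574889 on the minus strand and the UBE2C probe across chr13:75364411-75364967 on the plus strand. The ORC1 probe lies across chr3:100741857-100742883 and the MCM4 probe at chr14:19222305-19222364, both on the plus strand. The MCM3 probes lie at chr23:25206743-25206802 and chr9:90413780-90413839, and the PCNA probe at chr13:47616506-47616565, all on the minus strand. The GINS2 probe lies at chr18:10884770-10884829 on the minus strand. The TYMS probe lies at chr24:36769801-36769860 on the plus strand.

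The widest differences among these genes lay between the replicate letters, and they were larger for mitosis genes than for replication genes. On the scale used here, a level is the log2 signal minus the array's own 75th percentile, and the mean level over the 16 mitosis genes was -1.53 on control A, -1.14 on TAT A and -1.40 on gp120 A. It was 0.12 on control B, -0.05 on TAT B, 0.62 on gp120 B, 0.33 on TAT C and 0.45 on gp120 C. All 3 letter A arrays were thus below the other 5, whichever protein was given. The mean over the 23 replication genes was 0.25 on control A, 0.49 on TAT A and 0.32 on gp120 A, and 0.69, 0.73 and 1.09 on the letter B arrays in the same order. It was 1.004 on TAT C and 0.97 on gp120 C, so the letter A arrays were again lowest, by a smaller step. In bulk RNA, fewer cells of a kind and less of a transcript per cell cannot be told apart.

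**Figure D1:**
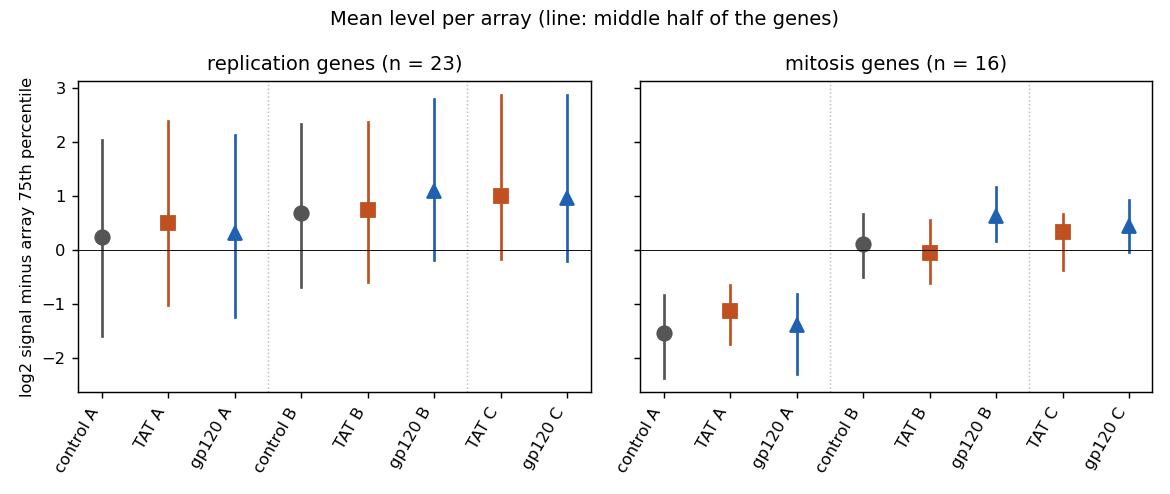
Mean level of the 23 replication genes (left) and the 16 mitosis genes (right) on each array, as log2 signal minus the array's 75th percentile; each vertical line spans the interquartile range of the genes and dotted lines part the letters. The mitosis mean lies between -1.53 and -1.14 on the letter A arrays and between -0.05 and 0.62 on the others.

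The difference between both means on 1 array gives the same contrast in a single number, of which only the change between arrays has a meaning because probes differ in brightness. Replication minus mitosis was 1.71 ± 0.07 (SD, n = 3) for letter A, 0.61 ± 0.16 (SD, n = 3) for letter B and 0.60 ± 0.11 (SD, n = 2) for letter C. The letter A arrays, at 1.63 to 1.78, did not overlap the other 5, at 0.47 to 0.79. By group the same number was 1.18 ± 0.86 (SD, n = 2) for control, 1.03 ± 0.52 (SD, n = 3) for TAT and 0.90 ± 0.70 (SD, n = 3) for gp120, with ranges that overlapped. Control B lay in row 1 of the slide beside the letter A arrays, and its value of 0.57 was among those of letters B and C.

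Letters were compared in a limma fit with terms for group and letter, adjusted over all 12064 genes. In letter C against letter A, 15 of 16 mitosis genes and 5 of 23 replication genes were higher and none was lower at an adjusted p under 0.05, beside 9.08% of all genes higher and 7.96% lower. In letter B against letter A, 14 of 16 mitosis genes and 5 of 23 replication genes were higher and none lower, beside 8.36% and 7.3% of all genes. The median log2 difference was 1.59 for mitosis, 0.52 for replication and 0.03 for all genes in C against A. In B against A the medians were 1.54, 0.44 and -0.01. Between letters C and B no gene of either kind passed in either direction, while 0.456% of all genes were higher and 1.13% lower. There the median difference was 0.14 for mitosis and 0.17 for replication, and at an unadjusted p under 0.05 stood 0 mitosis genes and 3 replication genes (1 higher, 2 lower), beside 8.88% of all genes higher and 7.98% lower.

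The number of calls depended on how slide row and scan entered the fit. With slide row as a block, 0 of 39 genes were called in C against A and 0 in B against A. Then 12 and 15 of the 16 mitosis genes and 3 and 4 of the 23 replication genes had an unadjusted p under 0.05. In B against A 1311 of all 12064 genes were higher and 1167 lower at that level. The count over all genes in C against A is not given for that level. The mitosis medians were 1.84 and 1.56 in that fit. Control B is the only row 1 array outside letter A, and the B against A estimates there equal control B minus control A. Row and letter can thus hardly be told apart, so the lack of calls does not show that row accounts for the differences. With scan as a block 7 and 9 genes were called. Calls fell over all 12064 genes too, in B against A from 1009 higher and 881 lower to 420 and 374 with scan as a block. They were 29 and 14 with slide row as a block. When 1 TAT or gp120 array was left out, 420 to 549 genes were higher and 374 to 484 lower. Without control A or control B they were 350 and 343. With all arrays 20 of the 39 genes were called in C against A, and 3 without TAT C, 2 without gp120 C and 7 without gp120 A. Counts over all genes in these C against A fits are not given here, so a general loss of calls cannot be told apart. In B against A 19 of the 39 genes were called with all arrays, and 9 when control A, control B, gp120 A or gp120 B was left out, or 12 without TAT C or gp120 C. These are not all separate checks. For B against A, leaving out either control gives the same fit, and so does leaving out TAT C or gp120 C. Scan as a block gives the same fit as leaving out gp120 A. The mitosis median stayed between 1.39 and 1.78 in C against A and between 1.28 and 1.72 in B against A when each array was left out.

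**Figure D2:**
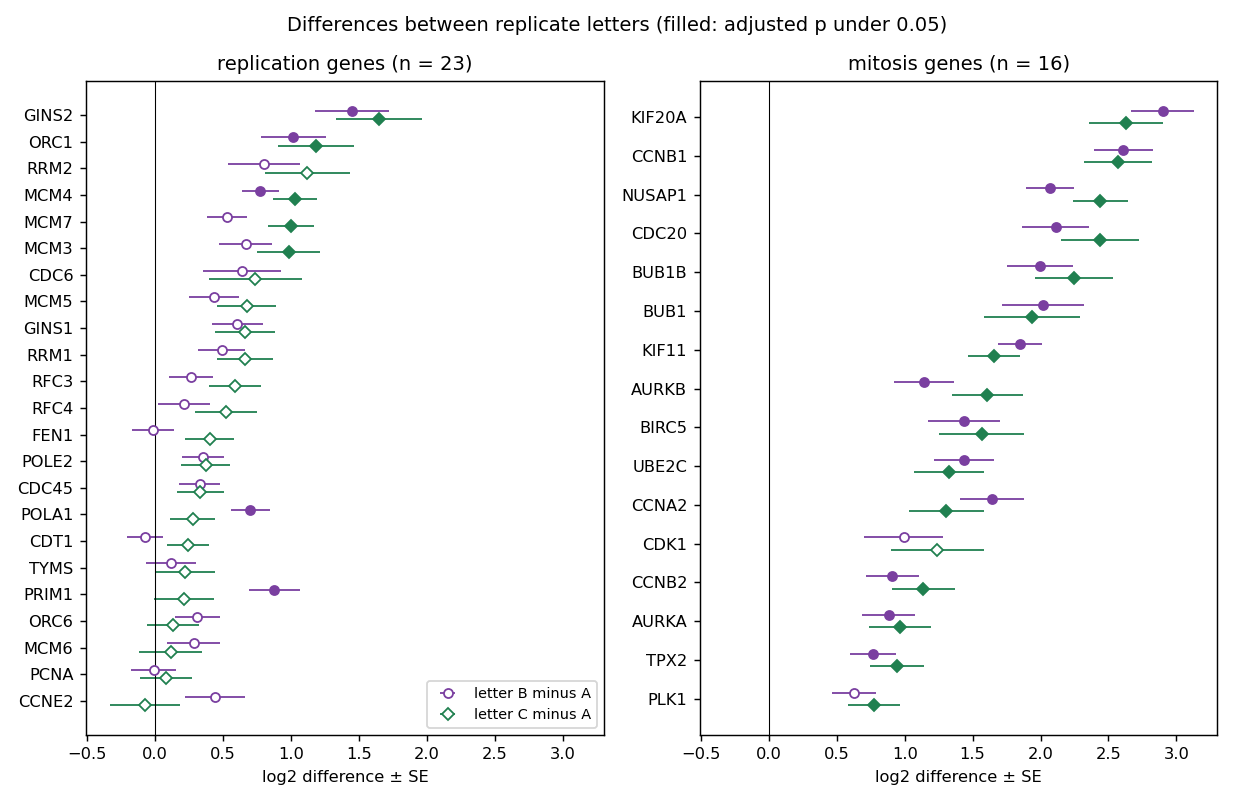
Log2 difference ± SE of letters B (circles) and C (diamonds) from letter A for each replication gene (left) and mitosis gene (right), from the limma fit with group and letter; filled symbols passed an adjusted p of 0.05. The mitosis genes lie between 0.63 and 2.90, and the replication genes between -0.08 and 1.65.

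Within each treatment the step between letters had the same direction for mitosis genes. All 16 were higher on control B than on control A (median 1.56), on TAT B than on TAT A (0.98), on TAT C than on TAT A (1.34), on gp120 B than on gp120 A (2.12) and on gp120 C than on gp120 A (1.59). For replication genes 20, 17, 20, 22 and 21 of 23 were higher in these 5 comparisons, with medians of 0.38, 0.16, 0.47, 0.63 and 0.52. Over all genes the share that was higher lay between 48.4% and 53.3%. All 16 mitosis genes and 10 of 23 replication genes had every letter B and C array above every letter A array, beside 15.5% of all genes, and none had every one below, beside 13.9%. For letter C against A alone 16 of 16 and 17 of 23 genes lay above without overlap (30.4% of all genes) and none below (26.8%), and for B against A 16 and 12 (19.1%) and none below (18.5%). Between C and B, 1 mitosis and 6 replication genes had letter C above (19.7%) and POLA1 had it below (15.5%).

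In C against A all 5 replication calls were in origin licensing (4 of 9 genes) and helicase activation (1 of 3). In B against A they were spread over licensing (2 of 9), helicase activation (1 of 3) and fork enzymes (2 of 7). MCM4, a subunit of the replicative helicase, had levels of 2.61, 2.76 and 2.52 on control A, TAT A and gp120 A, 3.41, 3.39 and 3.42 on the letter B arrays in that order, and 3.67 and 3.65 on TAT C and gp120 C. The 3 letters did not overlap, and the spread within a letter was small beside the step from A to B. The log2 difference was 1.03 ± 0.16 (SE) for C against A (adjusted p = 0.0128) and 0.77 ± 0.14 for B against A (adjusted p = 0.0188). All 5 MCM4 probes had differences between 0.60 and 1.11.

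GINS2, a subunit of the complex that joins CDC45 and the MCM ring, had the largest difference of the replication genes. Its level was -1.82 on control A, -0.77 on TAT A and -1.34 on gp120 A, and 0.05, -0.16 and 0.53 on the letter B arrays. On TAT C and gp120 C it was 0.42 and 0.55. Letter A lay wholly below letters B and C, while B and C overlapped. The log2 difference was 1.65 ± 0.32 (SE, adjusted p = 0.0217) for C against A and 1.45 ± 0.27 (SE, adjusted p = 0.0214) for B against A. GINS1, its partner, differed by 0.66 and 0.60 and did not pass.

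ORC1, the large subunit of the origin recognition complex, passed in both comparisons, with differences of 1.19 (adjusted p = 0.0367) for C against A and 1.02 (adjusted p = 0.0385) for B against A. MCM3 and MCM7, also helicase subunits, passed for letter C alone among the pair of comparisons with letter A. MCM3 read -1.08, -0.20 and -0.76 on the letter A arrays, -0.33, -0.02 and 0.31 on letter B and 0.47 and 0.50 on letter C. Letter C was above letter B and letter B overlapped letter A, with a difference of 0.98 ± 0.23 (SE, adjusted p = 0.0367) for C against A and 0.67 (adjusted p = 0.071) for B against A. The second MCM3 probe, on chromosome 9, gave 0.56 and 0.83. MCM7 read 2.47, 2.68 and 2.73 on letter A, 3.13, 2.98 and 3.36 on letter B and 3.57 and 3.77 on letter C, in order without overlap. Its difference was 0.998 ± 0.17 (SE, adjusted p = 0.0156) for C against A and 0.53 (adjusted p = 0.058) for B against A.

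MCM5 and CDC6, which loads the helicase, were higher on letters B and C without passing. MCM5 read 2.01, 2.45 and 2.13 on letter A, 2.33, 2.56 and 3.01 on letter B and 3.02 and 2.97 on letter C, with differences of 0.67 (C against A, adjusted p = 0.0814) and 0.43 (B against A, adjusted p = 0.163). CDC6 read -4.28, -3.68 and -4.31 on letter A, -4.06, -3.52 and -2.76 on letter B and -3.20 and -3.10 on letter C, with differences of 0.74 and 0.64. For both genes letter C lay above letter A and letter B overlapped it. The other licensing genes, MCM6, CDT1 and ORC6, had differences between -0.08 and 0.31 in these comparisons, and none passed.

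Of the 7 genes for enzymes at the replication fork, 2 passed in B against A and none in C against A. POLA1, the catalytic subunit of polymerase alpha, read -3.38, -3.31 and -2.99 on letter A, -2.69, -2.51 and -2.38 on letter B and -2.85 and -2.89 on letter C. PRIM1, which makes the RNA primers, read -3.63, -3.52 and -3.91 on letter A, -3.21, -2.49 and -2.73 on letter B and -3.13 and -3.65 on letter C. In both genes the letter B mean was highest, with letters B and C overlapping for PRIM1 alone, and with differences of 0.70 ± 0.14 (SE, adjusted p = 0.0267) for POLA1 and 0.88 ± 0.19 (SE, adjusted p = 0.03) for PRIM1 against letter A. They and the other 2 that had the smallest p between C and B, MCM7 and FEN1, did not pass there (adjusted p from 0.219 to 0.308). FEN1, the nuclease that trims Okazaki fragments, read 2.06, 2.32 and 2.14 on letter A, 2.19, 2.03 and 2.26 on letter B and 2.62 and 2.58 on letter C.

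PCNA, the sliding clamp, was nearly level across letters in its brightest probe, at 3.47, 3.55 and 3.69 on letter A, 3.62, 3.35 and 3.71 on letter B and 3.76 and 3.56 on letter C. All letters overlapped, with differences of 0.08 ± 0.19 (SE) for C against A and -0.01 ± 0.16 (SE) for B against A. Its 2 dimmer probes gave 0.02 and 0.41 for C against A and 0.31 and 0.54 for B against A. RFC3, RFC4, POLE2 and FEN1 had differences of 0.37 to 0.59 in C against A and none passed.

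The genes that supply deoxynucleotides did not pass. RRM2, the regulated subunit of ribonucleotide reductase, read 0.48, 1.25 and 0.69 on letter A, 1.35, 1.31 and 2.16 on letter B and 2.05 and 2.09 on letter C. Letter A lay below every other array, by a difference of 1.12 ± 0.31 (SE, adjusted p = 0.0571) for C against A and 0.80 (adjusted p = 0.0933) for B against A. TYMS, thymidylate synthase, had differences of 0.22 and 0.12. CCNE2, the G1/S cyclin E2, read -3.16, -2.43 and -2.95 on letter A, -2.41, -2.47 and -2.34 on letter B and -2.45 and -3.23 on letter C, which overlapped, with differences of -0.08 and 0.44.

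Among the mitosis genes the largest differences were in KIF20A, a kinesin needed for cytokinesis. It read -2.36, -1.69 and -2.29 on control A, TAT A and gp120 A, 0.64, 0.58 and 1.14 on the letter B arrays and 0.60 and 0.63 on the letter C arrays. Letter A lay far below the others, which overlapped each other. The log2 difference was 2.63 ± 0.27 (SE, adjusted p = 0.00392) for C against A, a ratio of 6.18, and 2.90 ± 0.23 (SE, adjusted p = 0.00225) for B against A, a ratio of 7.46.

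CCNB1, the cyclin that activates CDK1 at mitotic entry, behaved alike in both of its overlapping probes. The brighter probe read -1.97, -1.51 and -1.76 on letter A, 0.78, 0.54 and 1.28 on letter B and 0.88 and 0.93 on letter C. Its difference was 2.57 ± 0.25 (SE, adjusted p = 0.00361) for C against A and 2.61 ± 0.21 (SE, adjusted p = 0.00232) for B against A, and the second probe gave 2.58 and 2.83. CCNB2, cyclin B2, read -0.38, -0.57 and -0.41 on letter A, 0.19, 0.17 and 0.9997 on letter B and 0.53 and 0.93 on letter C, with called differences of 1.14 (adjusted p = 0.0244) and 0.91 (adjusted p = 0.0303). CCNA2, cyclin A2, which acts in S phase as well as in mitosis, read -1.69, -1.70 and -1.96 on letter A, -0.48, -0.31 and 0.36 on letter B and -0.47 and -0.37 on letter C. In each cyclin every letter A array was below every other array. CDK1 did not pass: it read -1.76, -0.68 and -1.16 on letter A, -0.20, -0.53 and 0.09 on letter B and 0.39 and -0.05 on letter C. TAT A was close to TAT B, and the difference was 1.24 ± 0.34 (SE, adjusted p = 0.0563) for C against A and 0.99 ± 0.29 (SE, adjusted p = 0.0691) for B against A.

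**Figure D3:**
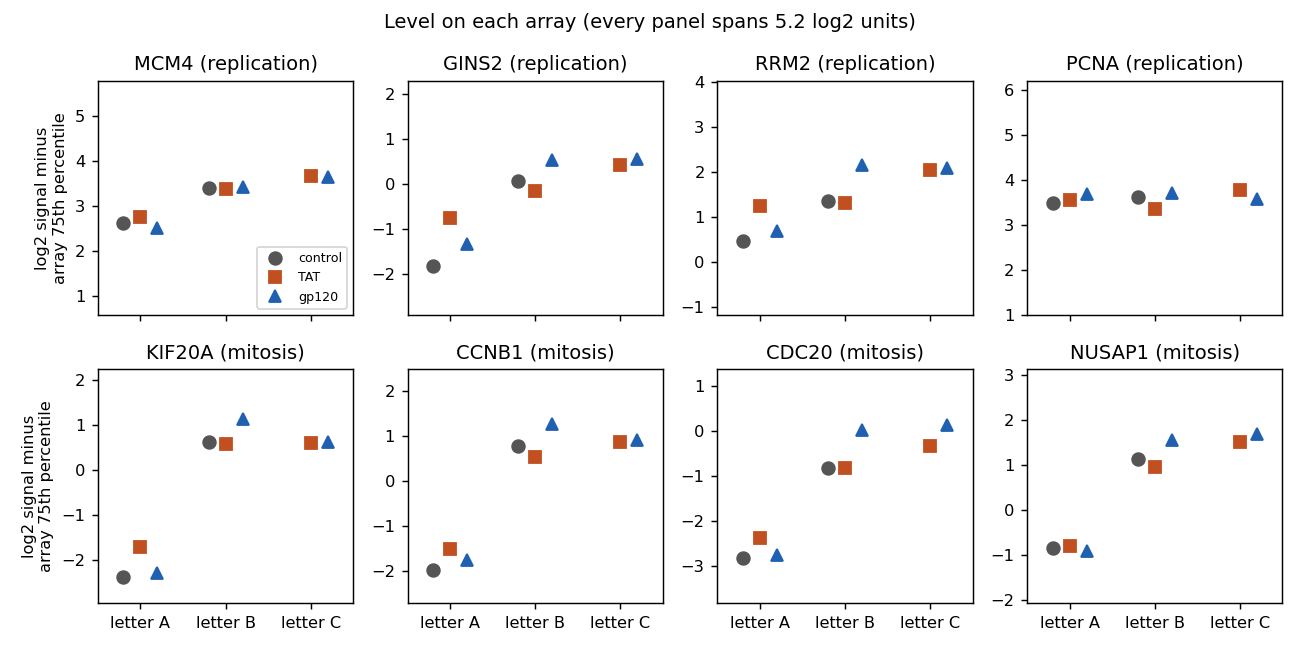
Level of 4 replication genes (top) and 4 mitosis genes (bottom) on each array by letter, as log2 signal minus the array's 75th percentile; circles are control, squares TAT and triangles gp120, 1 point per array. KIF20A, CCNB1, CDC20 and NUSAP1 are lower on every letter A array than on any other, while PCNA stays between 3.35 and 3.76.

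The spindle genes also differed widely. NUSAP1, which bundles microtubules around chromosomes, read -0.86, -0.82 and -0.92 on letter A, 1.11, 0.95 and 1.54 on letter B and 1.51 and 1.68 on letter C. The spread within letter A was the smallest of the mitosis genes named, and the difference was 2.44 ± 0.21 (SE, adjusted p = 0.00247) for C against A and 2.07 ± 0.18 (SE, adjusted p = 0.00245) for B against A. KIF11, the motor that separates the spindle poles, read -3.82, -3.78 and -3.94 on letter A, -1.92, -2.19 and -1.89 on letter B and -2.09 and -2.35 on letter C. Its differences were 1.65 ± 0.19 (SE, adjusted p = 0.00548) and 1.85 ± 0.16 (SE, adjusted p = 0.00266). TPX2, which activates Aurora A on the spindle, had smaller called differences of 0.94 and 0.77.

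The genes of the spindle checkpoint and of the anaphase-promoting complex moved in the same direction. CDC20, the activator of that complex, read -2.84, -2.38 and -2.76 on letter A, -0.83, -0.83 and 0.02 on letter B and -0.35 and 0.13 on letter C, with differences of 2.44 ± 0.29 (SE, adjusted p = 0.00593) and 2.11 ± 0.25 (SE, adjusted p = 0.00564). UBE2C, its ubiquitin-conjugating enzyme, read -1.62, -0.95 and -1.26 on letter A, -0.18, -0.06 and 0.72 on letter B and 0.13 and 0.32 on letter C, with differences of 1.33 (adjusted p = 0.0222) and 1.43 (adjusted p = 0.0122). Both genes had all letter A arrays lowest. The checkpoint kinase BUB1 and its relative BUB1B differed by 1.94 and 2.25 in C against A and by 2.02 and 1.99 in B against A, and all 4 values passed.

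The Aurora and Polo kinases had a median difference of 0.97 in C against A and 0.88 in B against A, with AURKB above both medians. AURKB, the kinase of the chromosomal passenger complex, read -1.76, -1.06 and -1.13 on letter A, -0.22, -0.49 and 0.18 on letter B and 0.44 and 0.38 on letter C, with differences of 1.61 (adjusted p = 0.0138) and 1.14 (adjusted p = 0.024). Its 2 dimmer probes gave 0.59 and 0.78 for C against A. AURKA, the centrosomal Aurora kinase, read -0.76, -0.50 and -0.49 on letter A, 0.19, -0.09 and 0.80 on letter B and 0.29 and 0.62 on letter C, with differences of 0.97 (adjusted p = 0.037) and 0.88 (adjusted p = 0.0327). PLK1, Polo-like kinase, had the smallest mitosis differences, at 0.77 (adjusted p = 0.0413) and 0.63 (adjusted p = 0.0503). BIRC5, survivin, another passenger protein, read -1.90, -1.70 and -2.00 on letter A, -0.55, -0.93 and 0.18 on letter B and -0.49 and -0.03 on letter C. Its differences were 1.57 (adjusted p = 0.024) and 1.44 (adjusted p = 0.0209), again with letter A wholly below.

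CENPF, a kinetochore protein, was left out of the tests because no group had it well above background throughout. Each of its 3 probes was well above background on none of the 3 letter A arrays, on all 3 letter B arrays and on 1 or 2 of the 2 letter C arrays. Set against the lowest signal of any probe that counted as above background on each letter A array, or the probe's own signal where that was higher, the mean of letters B and C was 2.73-fold, 4.22-fold and 4.53-fold higher by probe. These ratios are not strict lower bounds. That lowest signal is not the probe's own limit, and some letter C values were themselves not above background. Probes of a gene pointed the same way in all 9 mitosis genes with more than 1 probe kept. Of 15 such replication genes, MCM3, MCM7 and PCNA had probes on both sides of 0 in B against A, and CCNE2 and ORC6 in C against A.

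No gene passed an adjusted p of 0.05 between treatments, among these genes or among all 12064 (0.0% higher and 0.0% lower in each of the 3 comparisons, by limma), and at an unadjusted p under 0.05 stood 0 of the 39. In TAT against control, 0.489% of all genes were higher and 0.895% lower at that unadjusted level, in gp120 against control 1.0% and 1.77%, and in TAT against gp120 1.63% and 1.02%. TAT minus control had a median log2 difference of 0.50 over mitosis genes, all 16 above 0, and of 0.26 over replication genes, 20 of 23 above 0. Over all genes it was -0.03. gp120 minus control had medians of 0.62 and 0.30, with 16 of 16 and 18 of 23 above 0, and -0.01 over all genes. Both comparisons use the same control arrays. The median half-width of the 95% interval was 1.72 for a mitosis gene and 0.76 for a replication gene in these fits, wider than the medians themselves.

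With the letter as a block, no gene of either kind was called either, and MCM3 in TAT against control alone had an unadjusted p under 0.05 (0.0484), beside 2.29% of all genes higher and 2.57% lower at that level. In gp120 against control the blocked fit had 0 of the 39 genes at that level, beside 2.31% and 3.62% of all genes, and in TAT against gp120 0, beside 4.41% and 3.72%. The block lowered the medians of TAT minus control to 0.12 for mitosis and 0.12 for replication, and those of gp120 minus control to 0.34 and 0.19. Letter C has no control array, and letter A, where levels are lowest, makes up 1 of 2 control arrays but 1 of 3 arrays of each protein. Leaving out control A gave mitosis medians of -0.39 for TAT and -0.17 for gp120, and leaving out control B gave 1.36 and 1.47. With slide row as a block the mitosis medians were -0.73 for TAT and -0.48 for gp120. Row 2 holds no control and no letter A array, so the row term also takes up the step between letters. Within scan 2, where gp120 A is the only gp120 array, the gp120 value was -0.83, and within row 1 the TAT value, from TAT A alone, was -0.47. Both values set letter A of a protein against control A and control B, so letter and treatment are mixed there. Against control A alone the mitosis medians were 0.36 for TAT A and 0.08 for gp120 A.

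The genes with the smallest p in TAT against control were MCM3, CDC6 and MCM5 for replication and CDK1, AURKB and UBE2C for mitosis. Their log2 differences without and with the letter block were 0.79 ± 0.43 (SE) and 0.57 ± 0.23 for MCM3, 0.70 and 0.56 for CDC6 and 0.51 and 0.35 for MCM5. For the mitosis genes they were 0.71 and 0.46 (CDK1), 0.62 and 0.28 (AURKB) and 0.61 and 0.40 (UBE2C). The adjusted p was 0.999 for each without the block. MCM3, MCM5, MCM6 and CDC6 were the only 4 of the 39 genes with all TAT arrays above both control arrays, beside 4.76% of all genes, and none had them all below, beside 9.28%. No gene of the 39 had all gp120 arrays above the controls (5.4% of all genes) or below them (7.54%), and none had all TAT arrays above all gp120 arrays (3.03%) or below (3.6%).

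In gp120 against control the genes with the smallest p were CDC6 (0.78 ± 0.44 SE), MCM3 (0.72 ± 0.43) and MCM6 (0.42 ± 0.25), and AURKA (0.59 ± 0.47), UBE2C (0.83 ± 0.68) and AURKB (0.80 ± 0.66), each with an adjusted p of 0.998. MCM6 read 0.94 and 0.92 on control A and B, 1.08, 1.21 and 0.97 on TAT A, B and C and 0.93, 1.69 and 1.42 on gp120 A, B and C. gp120 A was level with the controls, and the pair of high arrays were those read in scan 1. The part of the scan in these values was not tested beyond the fits given.

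Same-letter pairs show how uneven the treatment differences were. TAT A was above control A in 14 of 16 mitosis genes (median 0.36), and TAT B above control B in 3 of 16 (median -0.24). For replication genes the counts were 19 and 9 of 23, with medians of 0.15 and -0.04. gp120 A was above control A in 10 of 16 mitosis genes (median 0.08) and gp120 B above control B in 15 of 16 (median 0.53), and for replication genes in 15 and 21 of 23 (medians 0.06 and 0.33). Over all genes between 43.0% and 46.9% were higher in these 4 pairs.

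**Figure D4:**
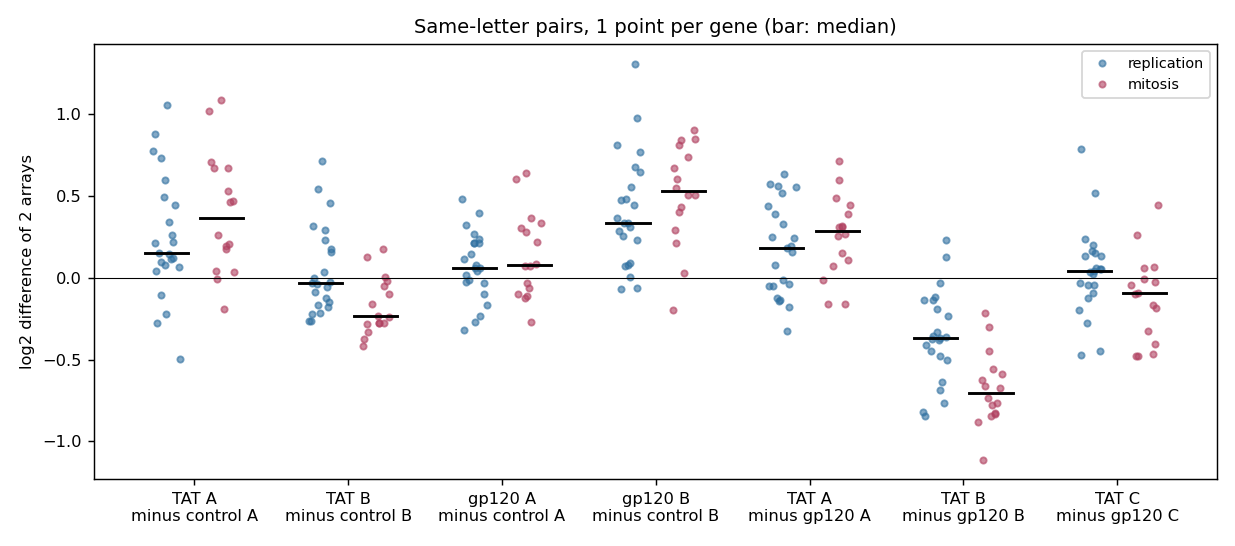
Log2 difference of 2 arrays of the same letter for each replication gene (blue) and mitosis gene (red), with the median as a bar. TAT B lies below gp120 B in all 16 mitosis genes, while TAT A lies above gp120 A in 13 of them.

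TAT and gp120 were compared directly over 3 pairs. The median of TAT minus gp120 was -0.18 for mitosis, with 4 of 16 above 0, and -0.08 for replication, with 6 of 23 above 0, and these medians were the same with the letter block because both proteins have every letter. By pair, TAT was above gp120 in 13, 0 and 4 of 16 mitosis genes for letters A, B and C, with medians of 0.29, -0.71 and -0.10. For replication genes the counts were 14, 2 and 14 of 23. Scan 1 held gp120 B and C but not gp120 A, and within scan 2 the medians were 1.05 for mitosis and 0.32 for replication. These 2 medians set TAT A, B and C against gp120 A alone, an array of the letter with the lowest levels. They therefore hold a difference between letters as well, and TAT A minus gp120 A had a mitosis median of 0.29. The genes with the smallest p were CCNE2 (0.39 ± 0.29 SE), MCM6 (-0.26 ± 0.22) and PRIM1 (0.38 ± 0.38), and CCNB2 (-0.46 ± 0.45), AURKA (-0.41 ± 0.42) and BIRC5 (-0.42 ± 0.65). None passed, also with the letter block, where the adjusted p was 0.616 to 0.742 for these genes.

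Further genes of both processes were taken from lists of standard members, to be read against the shares of all genes, 8.36% higher and 7.3% lower in B against A and 9.08% and 7.96% in C against A. Of 34 further mitosis genes tested, 24 were higher and none lower in B against A (median 1.14), and 22 were higher and 1, SGO1 (-0.83), lower in C against A (median 1.18). The genes with the smallest p, in B against A and then in C against A, included HMMR, a spindle protein, at 1.64 ± 0.17 (SE, adjusted p = 0.004) and 2.06 ± 0.20 (SE, adjusted p = 0.00336), and the mitotic kinase PBK at 2.20 ± 0.18 (SE, adjusted p = 0.00242) and 2.14 ± 0.22 (SE, adjusted p = 0.00386). PBK read -1.84, -1.47 and -1.84 on letter A, 0.55, 0.31 and 0.59 on letter B and 0.60 and 0.28 on letter C, so that letters B and C overlapped far above letter A. Of 33 further replication genes, 3 were higher (MCM10, DUT and ASF1B) and 1 lower (RFC2, at -0.86) in B against A, where the count higher is near the share of all genes. In C against A 6 were higher and none lower, with ASF1B, a histone chaperone, at 1.097 (adjusted p = 0.0145) and ORC5, of the origin recognition complex, at 0.86 (adjusted p = 0.0228) having the smallest p. The medians were 0.24 in B against A and 0.43 in C against A. In the comparisons between treatments, 0 genes of either list passed, with medians of 0.25 (mitosis) and 0.13 (replication) for TAT minus control. SGO1, DUT and ASF1B in B against A are named because their counts are small, after their values were seen.

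Among 26 regulators of the cycle, 2 were higher and 2 lower in B against A, and 2 higher and 3 lower in C against A, counts near those shares of all genes (8.36% and 7.3%, then 9.08% and 7.96%), so only the single genes are described. MYBL2, the transcription factor B-Myb that drives G2/M genes, read 0.85, 1.603 and 1.09 on letter A, 2.25, 2.30 and 2.88 on letter B and 3.03 and 2.97 on letter C. Letter A was lowest, with differences of 1.68 ± 0.26 (SE, adjusted p = 0.0126) for C against A and 1.30 ± 0.22 (SE, adjusted p = 0.0172) for B against A. FOXM1, another G2/M factor, differed by 0.02 and -0.27, and E2F1, a G1/S factor, by 0.69 (adjusted p = 0.0683) and 0.24. CCND1, cyclin D1 of the G1 phase, went the other way, at 4.40, 4.52 and 4.24 on letter A, 2.77, 3.07 and 3.095 on letter B and 3.27 and 3.02 on letter C. Its difference was -1.29 ± 0.18 (SE, adjusted p = 0.00904) in C against A and -1.41 ± 0.15 (SE, adjusted p = 0.00494) in B against A, and that of CCND2, cyclin D2, was -1.50 and -1.55. CHEK1, the replication checkpoint kinase, was higher by 1.1003 and 0.86, and E2F4 fell by 0.74 in C against A. E2F4, CHEK1 in B against A and CCND2 in C against A are named because these counts are small, after their values were seen.

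Of 10 inhibitors of cyclin-dependent kinases and related growth arrest genes, 4 were higher (CDKN1C, CDKN2C, CDKN2D and CDKN3) and 1 lower (BTG1) in B against A, and 2 were higher (CDKN2C and CDKN2D) and 1 lower (BTG1) in C against A, beside the same shares of all genes, 8.36% and 7.3%, then 9.08% and 7.96%. CDKN2D and CDKN3 differed by 1.20 and 1.19 in B against A. CDKN2D differed by 1.26 and CDKN2C by 1.58 in C against A. CDKN1A (p21) differed by -0.00 in C against A and -0.11 in B against A, and CDKN1B (p27) by 0.29 and -0.09, and none of these passed. CDKN1C, BTG1 and, in B against A, CDKN2C are named because these counts are small, after their values were seen.

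In these lists the genes with the smallest p between letters C and B did not pass. They were POLA2 (0.79) and RPA1 (0.46) for replication, MAD2L1 (-0.69) and ANLN (-0.73) for mitosis, E2F1 (0.45) and E2F4 (-0.31) among regulators, and CDKN3 (-0.58) and BTG2 (-0.51) among inhibitors. There MYBL2 differed by 0.38, FOXM1 by 0.29, CCND1 by 0.12, CDKN1A by 0.11 and CDKN1B by 0.38.

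Between treatments none of the genes with the smallest p passed either, with adjusted p from 0.998 to 1.0. For TAT minus control they were GMNN (0.37), TK1 (0.48), RACGAP1 (0.50), SMC2 (0.74), CDK2 (0.39), LIN54 (-0.30), CDKN1A (-0.32) and CDKN1B (0.44). For gp120 minus control they were POLA2 (1.05), DBF4 (-0.56), MAD2L1 (-0.48), CDCA8 (0.80), LIN54 (-0.45), CDK4 (0.35), GADD45A (-0.49) and CDKN1B (0.28). For TAT minus gp120 they were TIMELESS (0.67), DBF4 (0.43), SMC2 (0.79), CDCA8 (-0.74), RBL1 (0.73), CDK2 (0.47), GADD45A (0.37) and CDKN2B (-0.55). MYBL2 differed from control by 0.76 in both TAT and gp120, E2F1 by 0.10 and 0.33, FOXM1 by -0.29 and -0.05 and CCND1 by 0.03 and -0.13. CDKN1A differed by -0.18 in gp120 minus control. In TAT minus gp120 the differences were -0.01 (MYBL2), -0.23 (E2F1), -0.24 (FOXM1), 0.17 (CCND1), -0.14 (CDKN1A) and 0.16 (CDKN1B).

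Markers of other cell types also differed between letters. The summed linear signal of 9 pericyte and smooth muscle genes, in multiples of the array's 75th percentile, was 115.5 to 203.9 on letter A, 296.9 to 434.1 on letter B and 204.6 to 261.0 on letter C. Of these, 6 were higher in B against A and 3 in C against A, and all 9 were well above background on 8 arrays. Their part in the mitosis differences was not tested. The sum of 14 microglia and macrophage markers was 533.0 to 647.1 on letter A, 453.2 to 589.0 on letter B and 535.2 to 601.6 on letter C, with none called. For 14 Müller glia markers on the array it was 630.9 to 790.9, 532.9 to 785.6 and 597.0 to 666.6, with 1 called higher in C against A. The lymphocyte list, which lacked a signal above background for CD3E on any array, summed to 29.24 to 38.49 on letter A, 61.05 to 86.13 on letter B and 93.83 to 147.5 on letter C. That sum followed 1 gene, NKG7 of cytotoxic granules, whose level was 4.26, 4.44 and 4.98 on letter A, 6.18, 5.73 and 6.30 on letter B and 6.41 and 7.11 on letter C. The T cell gene CD2 went the other way, from -2.64 to -2.17 on letter A and from -3.51 to -3.04 on the other arrays, and CD3D overlapped between letters. Of the 4 genes tested 1 was higher and 1 lower in B against A, and 2 higher and 1 lower in C against A.

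The retinal pigment epithelium list summed to 80.16 to 92.72 on letter A, 111.0 to 204.0 on letter B and 47.15 to 47.88 on letter C, without overlap, and followed TTR (transthyretin). Of its 4 genes tested 2 were higher in B against A and 2 lower in C against A. PMEL, TTR and LRAT were well above background on 8 arrays, MLANA on 6, BEST1 on 3, RPE65 on 2 and TYR and TYRP1 on none. The retinal neuron list summed to 3.465 to 5.077 on letter A, 2.238 to 8.977 on letter B and 0.7218 to 2.013 on letter C, with PDE6B and NEFL above background on no array. Its 4 tested genes had 1 call higher and 1 lower in B against A and 1 lower in C against A. Fibroblast (163.7 to 309.7, 176.3 to 226.7 and 199.2 to 237.2), endothelial (5.592 to 6.256, 6.111 to 6.758 and 5.044 to 6.582) and astrocyte sums (7.505 to 9.541, 6.584 to 11.51 and 6.845 to 7.752) overlapped between letters A, B and C. Calls there were 1 of 11 fibroblast genes lower in B against A, 1 of 7 endothelial genes higher and 1 lower in B against A and 2 and 2 in C against A, and 1 of 4 astrocyte genes lower in C against A. The part of the lymphocyte, pigment epithelium and neuron genes in the mitosis differences was not tested.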

How the data were processed

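RNA of 8 samples was read on 1-colour Agilent bovine arrays (design 029411) with Feature Extraction 11.5.1.1, protocol GE1_1105_Oct12 and genome build HGSC Btau_3.1, per the file headers. The deposited scanner files give each spot's processed signal, a background-corrected intensity on a linear scale. The deposited value table, used as an alternative, gives log2 values for 32421 gene names whose column medians lie between -3.33 and -3.18, and its centring and the choice of probe were not given in the sources used here. Of 39 tested genes 32 followed the probe used there with a correlation above 0.8 over the arrays, and the NUSAP1 and MCM7 rows followed no probe of these genes.

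Control spots and outlier spots were left out, log2 of the processed signal was taken minus each array's 75th percentile, and probes well above background on all arrays of at least 1 group were kept (31589). The brightest kept probe stood for a gene. Gene names came from the scanner files, updated through RefSeq (ARS-UCD2.0) by accession for 29887 of 51282 probes, by symbol for 5523 and by synonym for 159, while 15713 matched none. limma 3.58.1 in R 4.3.3 fitted group alone for treatments, and group with letter for letters, with two-sided tests and Benjamini-Hochberg adjustment over 12064 genes at a threshold of 0.05. The fit with group and letter was tested on simulated data with independent noise and changes in letter C alone. Those data held no row or scan effect, so the test does not bear on these. Arrays, 2 or 3 in a group, limit the precision.

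Same-letter arrays of different groups had correlations of 0.372 to 0.743 in their deviations from the group means (7 pairs), and different letters -0.653 to 0.416. Deviations sum to 0 within a group, which by itself pushes correlations between letters down. Control B followed TAT C (0.416) about as closely as TAT B (0.405). The check therefore cannot establish the pairing, and letters were used as pairs because the titles carry them. Alternatives were normexp background correction with an offset of 50, quantile normalization, other percentiles, filters and probe rules, the deposited table, letter, slide row and scan as blocks, and each array left out. The fits on scan 2 for letters, with letter and row together, and with letter while leaving out arrays were chosen after seeing the data.

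The members and lists were chosen with earlier results of these data known. Values per array are given for the 3 genes of each role with the smallest p between treatments, the 4 with the smallest p between letters, and a set of standard genes (MCM5, CDC6, PCNA, RRM2, CCNE2, CCNB1, CDK1, UBE2C and BIRC5). From the other lists the 2 genes with the smallest p in each comparison are named, with E2F1, FOXM1, MYBL2, CCND1, CDKN1A and CDKN1B. Promoter sequences were not analysed here.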

Additional observations from a re-analysis of the deposited data

Results flagged for a closer look

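Pairs of the same letter went opposite ways for TAT against control. The median difference over replication genes was 0.15 for letter A and -0.04 for letter B, and over mitosis genes 0.36 and -0.24. TAT minus gp120 also changed sign between letters. Over replication genes its median was 0.18 for letter A, -0.37 for letter B and 0.04 for letter C, and over mitosis genes 0.29, -0.71 and -0.1. With 1 pair for each letter these differences between letters were not tested. The arrays of gp120 B and C come from scan 1, all others from scan 2.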

How the results depend on the processing

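The number of genes called between treatments stayed 0 of 39 under every alternative run. With the letter as replicate block the medians of TAT minus control were 0.12 for mitosis and 0.12 for replication, and the block changed no call. Under that block without TAT A the mitosis median was -0.13, and AURKB was -0.03 without control A. For TAT minus gp120 the blocked replication median was 0.04 without TAT B and 0.06 without gp120 B.

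With slide row as a block, TAT minus control gave medians of -0.73 (mitosis) and -0.05 (replication), AURKB -0.19 and UBE2C -0.31. Within row 1 the mitosis median was -0.47, AURKB -0.07 and UBE2C -0.05. Row 1 holds both controls but only letter A of each protein, so letter and treatment are mixed in the row fits. gp120 minus control gave -0.48 (mitosis), -0.04 (replication), AURKB -0.01 and UBE2C -0.09 with row as a block. It gave the same values in 3 settings (a scan block, scan 2 alone, row 1 alone), namely -0.83 (mitosis), -0.11 (replication), CDC6 -0.14, MCM3 -0.05, AURKA -0.2, UBE2C -0.36 and AURKB -0.14. These 3 settings are 1 comparison, gp120 A against the mean of control A and control B, so they had to give the same values. TAT minus gp120 with scan as a block and within scan 2 gave 1.05 (mitosis), 0.32 (replication), MCM6 0.16, CCNB2 0.45, AURKA 0.39 and BIRC5 0.97. Both settings compare TAT A, B and C with gp120 A alone, so letter and protein are mixed there. Within row 1 TAT minus gp120 gave 0.29, 0.18, MCM6 0.15 and BIRC5 0.31, and its replication median was 0.03 in the deposited table.

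The 19 genes called in B against A became 7 in the deposited table, 11 without a filter on dim probes, 6 within scan 2, 9 with scan as a block and 0 with row as a block. The 20 called in C against A became 6, 10, 0, 7 and 0 in the same order. Over all genes the calls of B against A fell too, from 1009 higher and 881 lower to 435 and 335 of 12013 in the deposited table. They were 567 and 479 of 16904 without the filter, 203 and 180 within scan 2, 420 and 374 with scan as a block and 29 and 14 with row as a block. Counts over all genes in C against A are not given for these settings. The mitosis median of B against A was 1.15 in the deposited table, 0.78 with normexp and 1.23 within scan 2, and the replication median 0.27 with normexp. For C against A the mitosis median was 1.31 in the deposited table, 1.34 as a mean over probes, 0.87 with normexp and 1.84 with row as a block, and the replication median 0.29 with normexp. In the deposited table NUSAP1 was -0.14 (B against A), -0.3 (C against A) and -0.16 (C against B), and POLA1 was 0.14 (C against B). Replication minus mitosis in C against A was -0.76 in the deposited table, -0.62 with normexp and -1.24 with row as a block. The causes were not tested.

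Leaving out each array in turn, the median of TAT minus control ranged from -0.39 to 1.36 (mitosis) and from 0.01 to 0.46 (replication), with AURKB from -0.15 to 1.39, CDK1 from -0.08 to 1.49 and UBE2C from -0.11 to 1.33. For gp120 minus control it ranged from -0.17 to 1.47 and from 0.05 to 0.52, and for TAT minus gp120 from -0.85 to 0.27 and from -0.27 to 0.07. The count called ranged from 9 to 15 in B against A and from 2 to 21 in C against A. Over all genes 420 to 549 were higher and 374 to 484 lower in B against A when 1 TAT or gp120 array was left out. Without control A or control B they were 350 and 343, and counts over all genes in C against A are not given. The medians ranged from 1.28 to 1.72 (mitosis) and 0.30 to 0.58 (replication) in B against A, from 1.39 to 1.78 and 0.37 to 0.61 in C against A, and from -0.18 to 0.27 and 0.02 to 0.37 in C against B, with CCNA2 there from -0.48 to 0.02. Replication minus mitosis ranged from -1.24 to -1.02.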
